A study of Mus musculus with 6 samples.

Results

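The 10 genes Bhlhe40, Bhlhe41, Klf2, Klf3, Klf4, Klf6, Klf7, Klf9, Klf10 and Klf13 encode sequence-specific transcription factors, and their transcripts were followed in primary mouse microglial cultures that lacked the adaptor Dap12 or were wild-type. Microglia are macrophages that live in the brain, and Dap12, encoded by Tyrobp, passes signals of surface receptors such as Trem2 into the cell. All probe sets whose platform annotation gave exactly 1 symbol among these 10 were taken, which made 10 genes of 18194 with such a probe set and 33 probe sets of 45101 on the array. The genes were chosen by earlier results of these same arrays, in which the signals of the genotypes had been compared, and by their families. The differences of the 33 probe sets between the genotypes are therefore a description and support nothing beyond themselves.

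RNA of 3 Dap12-deficient cultures (Dap12-ko in the labels) and 3 wild-type cultures (wt) was hybridised to 1 single-colour oligonucleotide array each. The labels name no mutant allele, strain, age or sex of the mice and no culture method. Within each group 2 titles carry a joined pair of numbers and 1 a single number, and what these numbers stand for is not stated, so whether material was pooled is not known. The labels do not say that the cultures came from separate animals, so the spread between arrays may be partly technical. Array numbers follow the deposit order in each group and are names alone. With 3 arrays a group, the precision of every value is low.

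The KLF proteins form a family of DNA-binding proteins with zinc fingers at the end of the chain that recognise GC-rich and CACCC sequences. Some members, such as Klf3, Klf9, Klf10 and Klf13, recruit corepressors, while others, such as Klf2, Klf4, Klf6 and Klf7, are known mainly as activators. Bhlhe40 and Bhlhe41, also called Dec1 and Dec2, are basic helix-loop-helix repressors that bind the E-box CACGTG and act in the circadian clock. In macrophages, Klf2 and Klf4 are known to shape monocyte development and to restrain inflammatory genes, Klf6 to favour inflammatory genes, and Bhlhe40 and Bhlhe41 to control the self-renewal and identity of tissue macrophages. Several of these genes are early-response genes whose transcripts climb soon after a stimulus.

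Promoters of 8 of the 10 genes were in the RefSeq table (build GRCm38.p6), and Bhlhe40 and Klf10 had no entry. The 250 bases before the start of each gene were searched on both strands for CACGTG, an E-box that Bhlhe40 and Bhlhe41 bind. CACCC and GGGCGG, which KLF and SP proteins bind, were searched for in the same way. CACGTG was found in 3 of the 8 promoters, and in 6.02% of all 32851 promoters in the table. CACCC was found in 6 of the 8, against 52% of all promoters, and GGGCGG in 7 of the 8, against 32.7%. The shares over all promoters were not matched for base content, and the 8 promoters held 59.2% to 78.4% G and C. The CACCC and GGGCGG matches shared 1 base in Klf3 and 1 base in Klf13, and no CACGTG match shared a base with either. The 3 promoters with CACGTG are printed because the members Bhlhe40 and Bhlhe41 bind this E-box, and whether either binds there was not tested. Each stretch ends at the base before the start, and capitals mark CACGTG. The match spans bases 182 to 177 before the start in Klf4, 153 to 148 in Bhlhe41 and 43 to 38 in Klf6. A match is a stretch of letters and not a measured binding site. Klf4 lies at chr4:55532476-55532725 (minus strand), Bhlhe41 at chr6:145865421-145865670 (minus strand) and Klf6 at chr13:5861239-5861488 (plus strand).
Klf4: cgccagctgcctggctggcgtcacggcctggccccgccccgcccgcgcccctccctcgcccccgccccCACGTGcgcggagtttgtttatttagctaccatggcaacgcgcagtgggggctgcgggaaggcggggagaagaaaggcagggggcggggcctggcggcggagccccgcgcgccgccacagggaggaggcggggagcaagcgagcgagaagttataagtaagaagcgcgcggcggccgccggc
Bhlhe41: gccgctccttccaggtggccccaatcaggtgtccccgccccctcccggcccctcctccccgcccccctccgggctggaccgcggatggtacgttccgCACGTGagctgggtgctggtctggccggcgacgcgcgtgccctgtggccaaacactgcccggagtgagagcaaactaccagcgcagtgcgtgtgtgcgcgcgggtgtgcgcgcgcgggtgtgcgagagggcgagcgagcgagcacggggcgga
Klf6: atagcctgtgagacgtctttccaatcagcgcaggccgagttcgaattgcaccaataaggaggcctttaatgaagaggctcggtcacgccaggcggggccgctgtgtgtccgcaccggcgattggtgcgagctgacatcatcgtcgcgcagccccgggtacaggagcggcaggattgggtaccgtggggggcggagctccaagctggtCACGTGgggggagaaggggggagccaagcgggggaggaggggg

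The promoter of Klf2, at chr8:72318812-72319061 (plus strand), is printed beside them because Klf2 was the one gene whose brightest probe set had a lower mean signal in Dap12-deficient cultures than in wild-type cultures. It holds no CACGTG, 1 CACCC match and 2 GGGCGG matches, and capitals mark GGGCGG.
Klf2: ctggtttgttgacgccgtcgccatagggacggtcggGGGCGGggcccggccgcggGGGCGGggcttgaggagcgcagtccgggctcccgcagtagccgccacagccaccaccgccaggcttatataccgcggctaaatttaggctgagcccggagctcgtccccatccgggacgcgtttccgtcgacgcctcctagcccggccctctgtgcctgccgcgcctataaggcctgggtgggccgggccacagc

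Tyrobp, the targeted gene, gave 125, 96.4 and 96.2 on Dap12-deficient arrays 1, 2 and 3, against 5584, 7271 and 5396 on wild-type arrays. The signals are linear and had been scaled so that each array's trimmed mean was 100.001. Each gene's probe sets are numbered here by their mean signal over the 6 arrays, set 1 being the brightest. Of the 33 probe sets, 26 were bright enough to be tested, and the 7 others had signals between 0.754 and 27.8 with overlapping groups. Among these 26, 17 had a higher and 9 a lower log2 mean in Dap12-deficient cultures, with a median log2 difference of 0.19, against 0.03 over all 27022 probe sets tested. The split was 17 to 9 after quantile normalization and 18 to 8 after cyclic loess, but 11 to 15 with arrays set to a common median. That last scaling moved the median of all probe sets to -0.16. Of all tested probe sets 53.4% were higher, and 47.3% after quantile normalization, 50.1% after cyclic loess and 32.4% with a common median. In limma, 0 of the 26 had an adjusted p under 0.05, where 0.0074% of all tested probe sets had. At an unadjusted p under 0.05 there were 6 higher and 0 lower, where 7.05% of all tested probe sets were higher and 3.61% lower. Over all probe sets this split was 1904 higher and 976 lower, but 1485 and 1161 after quantile normalization and 838 and 3231 with a common median. In 6 of the 26 every Dap12-deficient array lay above every wild-type array, against 9.6% of all tested probe sets, and in 1 every Dap12-deficient array lay below, against 6.89%. The other 19 overlapped between the groups. Since the contrast itself led to the choice of the genes, nothing is read from these shares.

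**Figure D1:**
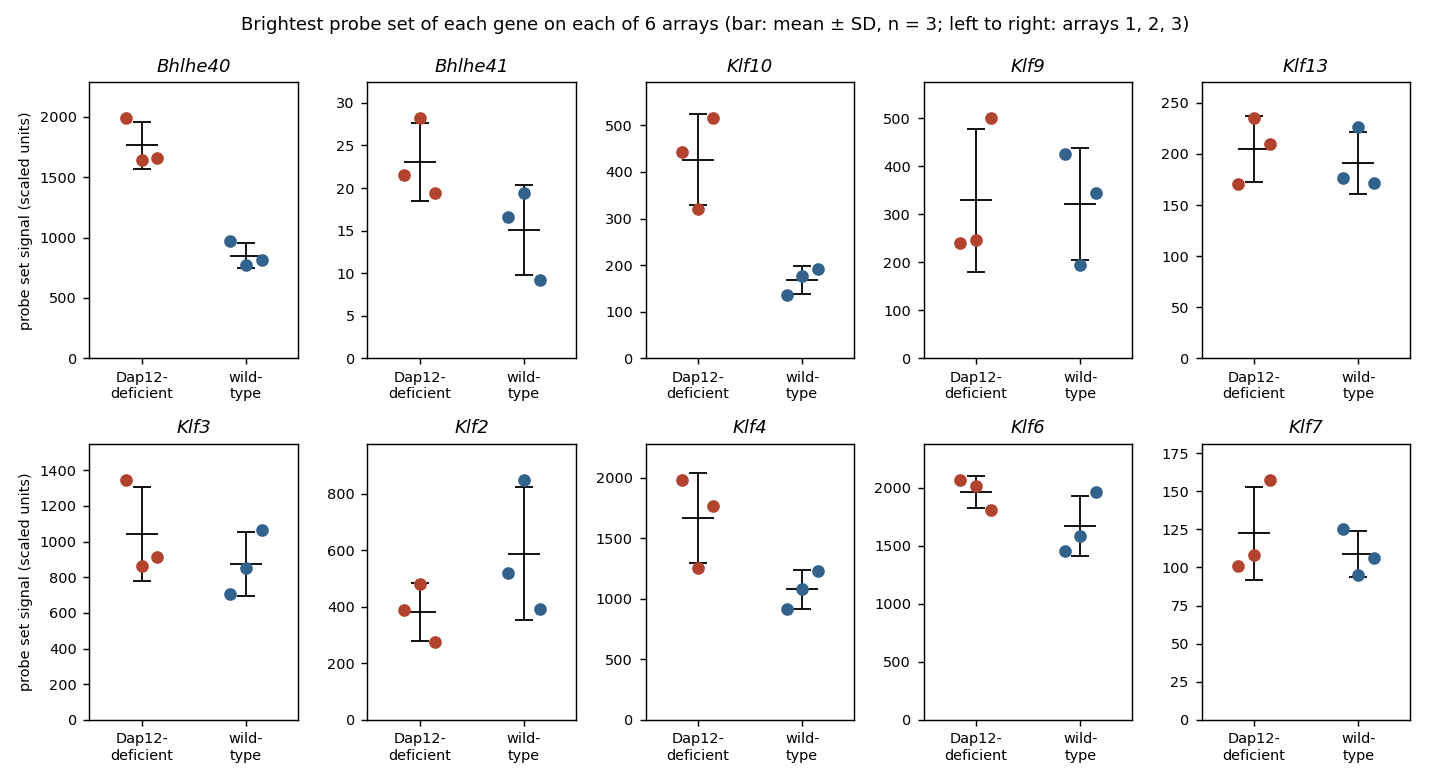
Signal (linear, scaled units) of the brightest probe set of each gene on each array, Dap12-deficient left and wild-type right, with mean and SD (n = 3 each). The groups are apart for Bhlhe40, Klf10 and Klf4 and overlap for the other 7 genes.

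Among the E-box repressors, Bhlhe40 was bright and about 2.07-fold higher in mean signal in Dap12-deficient cultures. Its only probe set gave 1986, 1643 and 1657 on Dap12-deficient arrays 1, 2 and 3, against 970.1, 769 and 812 on wild-type arrays 1, 2 and 3. The lowest Dap12-deficient array thus lay well above the highest wild-type array. The means were 1762 ± 194 and 850.2 ± 106 (SD, n = 3 each), a log2 difference of 1.04 (SE 0.18). Leaving out any 1 array gave log2 differences between 0.95 and 1.14, and the other scalings gave 0.79 to 1.08.

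Bhlhe41, the close relative of Bhlhe40, was dim on all arrays. Set 1 gave signals of 21.5, 28.2 and 19.4 in Dap12-deficient cultures, against 16.6, 19.4 and 9.25 in wild-type cultures, a log2 difference of 0.34 (SE 0.20). The groups overlapped, and the difference was 0.19 without wild-type array 3. At such levels the log2 difference depends on the pseudocount, and was 0.62 with a pseudocount of 1 and 0.14 with a pseudocount of 64. The other scalings gave 0.21 to 0.24. Set 2 was too dim to test, with signals between 1.01 and 27.8, and whether either set measured transcript or background is not known.

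Klf10, a transforming growth factor beta inducible repressor also called TIEG1, had the largest log2 difference among the brightest probe sets of the 10 genes. It gave 442, 322 and 515 on Dap12-deficient arrays, against 135, 177 and 193 on wild-type arrays, so the groups did not overlap. Mean signals were 426 ± 97.8 and 168 ± 29.6 (SD, n = 3 each), a ratio of 2.53 and a log2 difference of 1.25 (SE 0.23). The difference lay between 1.11 and 1.43 with any 1 array left out and between 1.01 and 1.30 under the other scalings. With all arrays Klf10 did not pass the threshold (limma adjusted p = 0.221). As the gene was chosen by this contrast, its p-values are a description and support nothing. Without Dap12-deficient array 2, the lowest of its group, Klf10 passed the threshold (log2 difference 1.43, SE 0.24, limma adjusted p = 0.0318). The fit over all probe sets then called 172 in place of 2.

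Klf9 and Klf13, which like Klf10 bind the corepressor Sin3a and are known as hormone-responsive and T cell factors, did not share the pattern of Klf10. Set 1 of Klf9 gave 241, 246 and 500.0 in Dap12-deficient cultures, against 425, 194 and 344 in wild-type cultures, a log2 difference of 0.02 (SE 0.33). Both groups spanned about the same range, with the highest signal on Dap12-deficient array 3. Sets 2 and 3 of Klf9 had log2 differences of -0.01 (SE 0.21) and -0.28 (SE 0.24), and its 4 other sets were too dim to test. Set 1 of Klf13 gave 170.4, 235 and 209 in Dap12-deficient cultures, against 176, 226 and 172 in wild-type cultures, a log2 difference of 0.09 (SE 0.21). Its set 2 lay the other way, with 33.4, 113 and 53.4 in Dap12-deficient cultures against 123, 90.1 and 95.6 in wild-type cultures and a log2 difference of -0.63 (SE 0.31), again with overlapping groups. The difference of set 2 was -0.32 without Dap12-deficient array 1 and -1.01 without array 2. The probe set names mark set 2 of Klf13 and set 1 of Klf9 as reading several transcripts of the gene.

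Klf3, a repressor that acts through the corepressor CtBP, was bright in set 1 and not alike across its 7 probe sets. Set 1 gave 1347, 865 and 915 in Dap12-deficient cultures, against 705, 851 and 1067 in wild-type cultures. The groups overlapped, and Dap12-deficient array 1 alone stood above all wild-type arrays, so the log2 difference was 0.24 (SE 0.23) with all arrays and 0.04 without that array. Of its 6 tested sets 3 were higher and 3 lower, with log2 differences from -0.27 to 0.43. The dim set 6 was the one member probe set whose Dap12-deficient arrays all lay below the wild-type arrays, at mean signals of 8.41 ± 0.66 against 13.1 ± 2.60 (SD, n = 3 each).

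**Figure D2:**
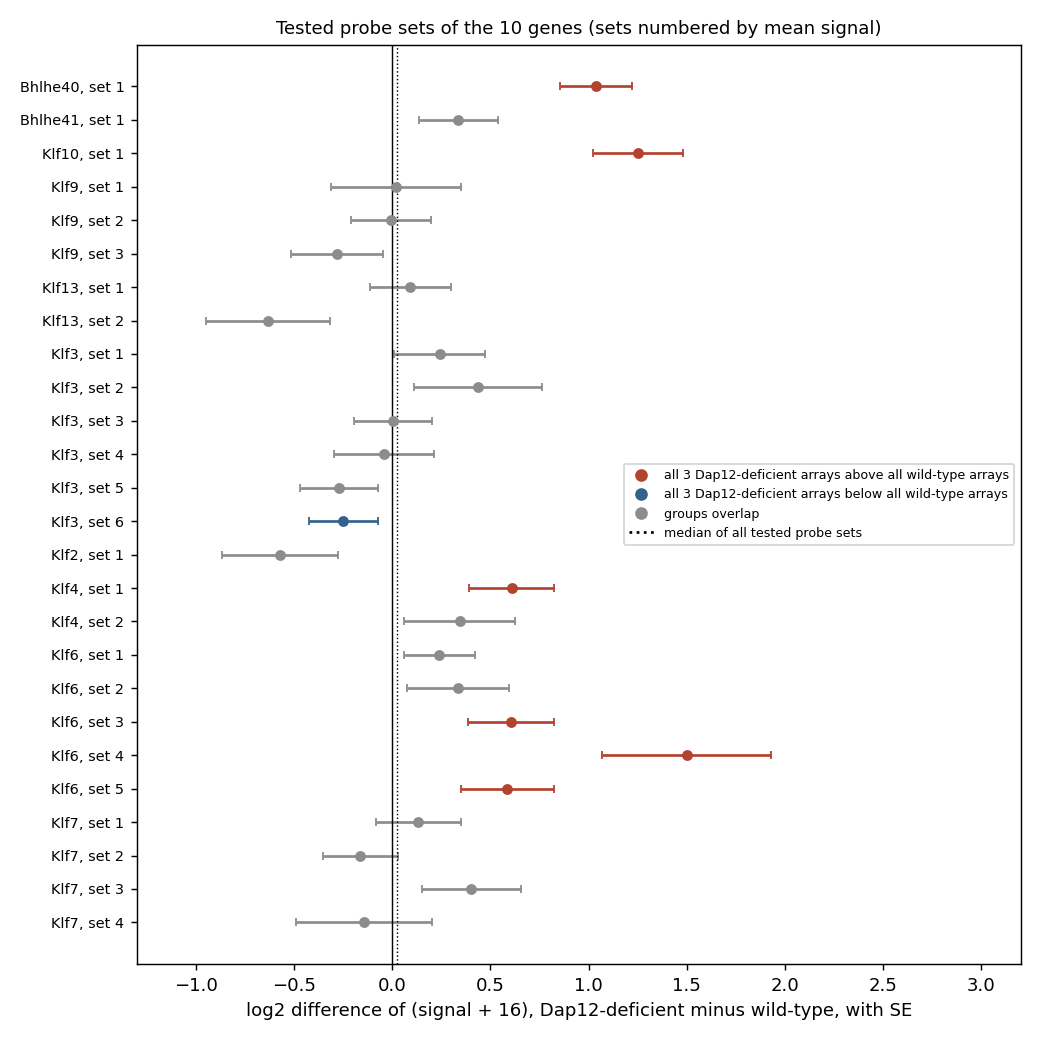
Log2 difference (Dap12-deficient minus wild-type, of signal + 16) with its SE for the 26 tested probe sets, coloured by whether the arrays of the groups overlap. Bhlhe40, Klf10, set 1 of Klf4 and sets 3, 4 and 5 of Klf6 have every Dap12-deficient array above the wild-type arrays, while Klf2 and set 2 of Klf13 have the lowest values.

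Klf4, a factor of monocyte differentiation, was bright and higher in mean signal in Dap12-deficient cultures, by a narrow gap between the groups. Set 1 gave 1985, 1255 and 1765 on Dap12-deficient arrays, against 914, 1084 and 1234 on wild-type arrays, and Dap12-deficient array 2 lay just above wild-type array 3. Means were 1668 ± 374 and 1078 ± 160 (SD, n = 3 each), a ratio of 1.55 and a log2 difference of 0.61 (SE 0.22). It lay between 0.47 and 0.80 with any 1 array left out and between 0.36, with a common median, and 0.65 under the other scalings. The dimmer set 2 overlapped between the groups, at signals of 158, 95.1 and 73.2 against 108, 57.9 and 76.3, with a log2 difference of 0.34 (SE 0.28), Dap12-deficient arrays first. That difference was 0.07 without Dap12-deficient array 1 and 0.12 with a common median.

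Klf2, a relative of Klf4 that quiets endothelium, T cells and monocytes, lay in the opposite direction, with overlapping groups. Its only probe set gave 387, 479 and 274 on Dap12-deficient arrays, against 519.9, 849 and 393 on wild-type arrays. The highest Dap12-deficient array was above the lowest wild-type array, and wild-type array 2 stood far above the rest. Means were 379.9 ± 102 and 587 ± 235 (SD, n = 3 each), and the log2 difference of -0.57 (SE 0.29) came to -0.28 without wild-type array 2 and -0.36 without Dap12-deficient array 3. The endothelial markers Pecam1, Cdh5, Cldn5 and Tek, whose cells also express Klf2 and Klf4, had signals of at most 13.4 on Dap12-deficient and 11.8 on wild-type arrays. The receptor genes Flt1 and Kdr, the brighter 2 of the 6 endothelial markers, were measured above that. Flt1 gave 14.4, 17.2 and 10.99 on Dap12-deficient arrays, against 34.3, 24.6 and 49.8 on wild-type arrays, a log2 difference of -0.77 (SE 0.22) in the direction of Klf2 and with no overlap. The other tested probe sets of Flt1 gave -0.56 (SE 0.19) with no overlap, and -0.17 (SE 0.22) and -0.14 (SE 0.31) with overlapping groups. Kdr gave 41.4, 34.1 and 56.3 against 37.6, 17.1 and 27.0, a log2 difference of 0.48 (SE 0.23) with overlapping groups. The part of endothelial signal in the difference of Klf2 was not tested.

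Klf6, an early-response activator, had all 5 of its probe sets higher in mean log2 signal in Dap12-deficient cultures, but by unequal amounts. Set 1 gave 2070.25, 2012 and 1805 on Dap12-deficient arrays, against 1459, 1588 and 1961 on wild-type arrays, a log2 difference of 0.24 (SE 0.18). Wild-type array 3 lay within the Dap12-deficient range there, as it did in set 2, where the difference was 0.33 (SE 0.26). The 3 dimmer sets separated the groups. Set 4 gave 468, 125 and 152 on Dap12-deficient arrays, against 65.6, 98.7 and 38.4 on wild-type arrays, a log2 difference of 1.50 (SE 0.43) that came to 0.95 without Dap12-deficient array 1. Sets 3 and 5 had log2 differences of 0.60 (SE 0.22) and 0.59 (SE 0.24), with mean signals in ratios of 1.56 and 1.67. With a common median set 1 was at -0.01, while sets 3, 4 and 5 were at or above 0.37 under each of the 3 other scalings. The probe set names mark set 2 and set 3 as able to bind transcripts of other genes, and set 4 as reading several transcripts of Klf6.

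Klf7, a factor of axon growth in neurons, showed no common direction. Set 1 gave 101, 108 and 158 on Dap12-deficient arrays, against 125, 95.4 and 106 on wild-type arrays, a log2 difference of 0.13 (SE 0.22). Its sets 2, 3 and 4 had log2 differences of -0.16 (SE 0.19), 0.40 (SE 0.25) and -0.14 (SE 0.35), and the groups overlapped in all 4 sets.

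**Figure D3:**
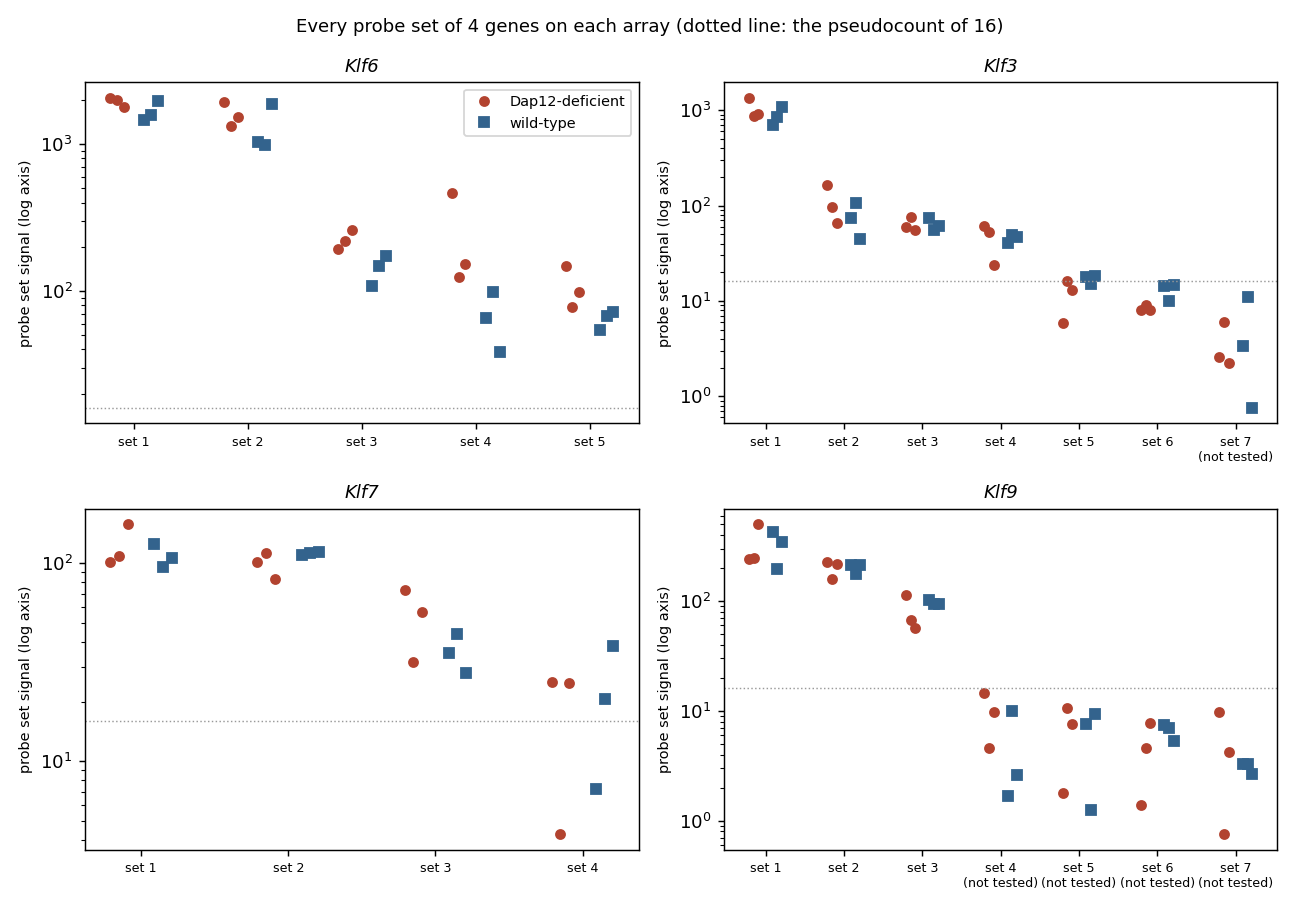
Signal (log axis) of every probe set of Klf6, Klf3, Klf7 and Klf9 on each array, Dap12-deficient left of wild-type. The 5 Klf6 sets lie to the Dap12-deficient side by different amounts, while the sets of the other 3 genes point both ways or overlap.

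Across members the arrays were not alike. Of the 26 tested probe sets, 13 were highest on Dap12-deficient array 1, 3 on array 2 and 4 on array 3, against 1, 1 and 4 on wild-type arrays 1, 2 and 3. The lowest signal fell on a Dap12-deficient array in 3, 2 and 5 probe sets for arrays 1, 2 and 3, against 6, 6 and 4 on wild-type arrays. Over the whole array the median signal was 16.5, 14.6 and 14.6 on Dap12-deficient arrays, against 12.4, 14.0 and 11.9 on wild-type arrays. This median was thus also highest on Dap12-deficient array 1. How often each array was highest over all tested probe sets was not counted, so nothing particular to the members is read from these counts. Dap12-deficient array 1 was the highest for Bhlhe40, Klf3, Klf4 and Klf6 (set 1 of each), while array 3 was the highest for Klf10. Without Dap12-deficient array 1 the log2 difference was still 0.47 for Klf4, 0.95 for Bhlhe40 and 1.21 for Klf10.

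The genes whose signals over the 6 arrays were most like those of Bhlhe40, by Pearson correlation of log2 signal over 12874 other genes, were Gm5802 (r = 0.998), Ybx1 (r = 0.991) and Gm38983 (r = 0.989). Ybx1 encodes a nucleic acid binding protein with a cold shock domain and differed little between the groups, at 0.14 on the log2 scale, and the other two are predicted genes with signals of at most 34.6. For Klf10 they were Sparcl1 (r = 0.991), a secreted matrix glycoprotein gene also expressed by astrocytes, Dync1li1 (r = 0.990), a subunit gene of the dynein motor, and Kprp (r = 0.988), a keratinocyte gene whose signals were at most 15.9. Sparcl1 gave 219, 150.1 and 257 on Dap12-deficient arrays, against 64.5, 99.9 and 89.0 on wild-type arrays. Among the members, Klf10 correlated with Klf4 at r = 0.933 and with Bhlhe40 at 0.882, and with Klf2 at -0.69. These correlations rest on 6 arrays that share the difference between the groups and are given as a description.

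Markers of other cell types were measured beside these genes. The summed signal of the 13 oligodendrocyte lineage markers measured (11 lower, 2 higher) was 3840 to 9112 on Dap12-deficient arrays, against 7790 to 11397 on wild-type arrays. The median log2 difference of these markers was -1.25, and lay between -1.80 and -0.87 with any 1 array left out. In limma 9 of them were lower and 0 higher at an unadjusted p under 0.05, where 4.87% of all genes were lower. The summed signal of the 11 astrocyte markers (8 of 10 tested higher) was 469.7 to 1486 against 533 to 971, so the wild-type range lay inside the Dap12-deficient one. Without Dap12-deficient array 3 only 5 of the 10 astrocyte markers were higher, and their median log2 difference was -0.01 in place of 0.40. The summed signal of the 13 microglial markers (12 lower, 1 higher) was 17926 to 23779 against 20834 to 30090.3. The 9 neuron markers summed to 329 to 426 against 413 to 520.2, the 7 fibroblast and meningeal markers to 115 to 155 against 113 to 212, and the 6 endothelial markers to 60.3 to 93.1 against 64.7 to 99.2. All these sums overlapped between the groups, but a sum is set mostly by the brightest genes of its list. By the mean log2 signal over the list, the microglial markers were apart by a narrow gap. They lay at 8.984 to 9.280 on Dap12-deficient arrays, against 9.285 to 9.636 on wild-type arrays. The same means of the other cell types overlapped. In a culture of mixed cells, fewer cells of a type and less RNA per cell cannot be told apart. The Y-linked gene Eif2s3y gave 64.5, 141 and 176 on Dap12-deficient arrays, against 611, 571 and 649 on wild-type arrays, and the Y-linked genes Kdm5d and Uty likewise lay below, where 6.89% of all tested probe sets did. Xist gave 2514, 2483 and 1228 against 251, 277 and 1164, so Dap12-deficient array 3 lay only just above wild-type array 3.

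With the mean log2 signal of the Y-linked genes Eif2s3y, Kdm5d and Uty as a covariate, the log2 difference was 0.45 (SE 0.51) for Bhlhe40, 1.69 (SE 0.66) for Klf10, 0.43 (SE 0.64) for set 1 of Klf4, -1.10 (SE 0.85) for Klf2 and -1.05 (SE 0.95) for set 4 of Klf6. Among the other sets that turned were set 2 of Klf4, set 5 of Klf6 and set 2 of Klf13, to -1.46 (SE 0.58), -0.16 (SE 0.66) and 0.15 (SE 0.90). In this fit 12 of the 26 tested member probe sets were higher, against 17 with no covariate. Their median log2 difference was -0.09, where that of all tested probe sets was 0.01. This covariate was lower on every Dap12-deficient array, at 5.31 to 6.19 against 7.10 to 7.36, so genotype and Y-linked signal cannot be told apart here. With the mean log2 signal of 5 myelin genes as the covariate, the values were 1.23 (SE 0.23) for Bhlhe40, 1.20 (SE 0.31) for Klf10, 0.77 (SE 0.29) and 0.97 (SE 0.27) for sets 1 and 2 of Klf4, -0.66 (SE 0.42) for Klf2, 2.14 (SE 0.55) for set 4 of Klf6 and -0.96 (SE 0.43) for set 2 of Klf13. This second covariate was 5.80 to 8.52 on Dap12-deficient arrays, against 7.98 to 9.21 on wild-type arrays. The part of the astrocyte, neuron and microglial markers in these differences was not tested.

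**Figure D4:**
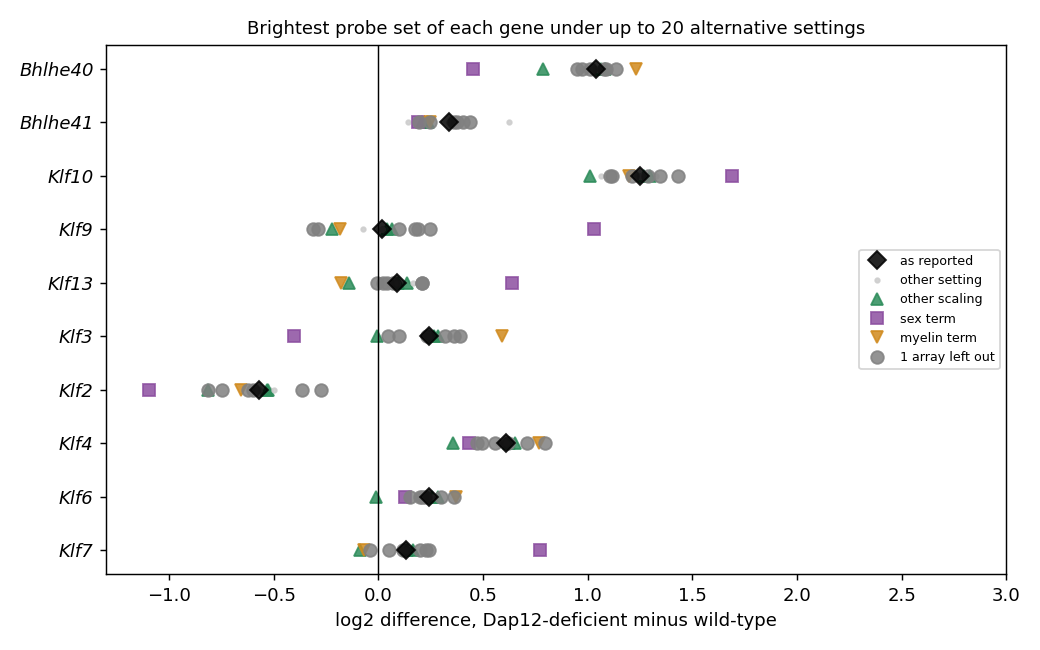
Log2 difference (Dap12-deficient minus wild-type) of the brightest probe set of each gene as reported and under up to 20 other settings, by kind of setting. The values of Bhlhe40, Bhlhe41, Klf10 and Klf4 stay above 0 and those of Klf2 below 0, while those of the other 5 genes lie on both sides of 0.

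Genes around these factors were followed in 9 lists, counted by the brightest tested probe set of each gene. The background was 12875 genes, of which 45.2% were higher and whose median log2 difference was -0.03. With a common median the median of all these genes was -0.23, so list medians under that scaling are to be set against -0.23. In limma 0 genes of the lists passed the adjusted threshold, where 0.0155% of the 12875 did. At an unadjusted p under 0.05, 4.76% of all genes were higher and 4.87% lower. Each count below is a description, as the lists were chosen with earlier results known.

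Of 13 tested genes among the other KLF and SP factors, 6 were higher and 7 lower, with a median log2 difference of -0.15 and 0 at an unadjusted p under 0.05. The median was -0.28 with 2 of 13 higher under a common median, -0.06 without Dap12-deficient array 2, -0.07 without Dap12-deficient array 3 or wild-type array 2, and 0.0045 over 15 genes with no filter. The smallest unadjusted p in this list was that of the repressor gene Klf12, at 79.2, 64.5 and 62.7 in Dap12-deficient cultures against 88.8, 86.3 and 108 in wild-type cultures (log2 difference -0.38, SE 0.19), although its other tested probe sets gave 0.01 and 0.14. Klf14 and the osteoblast factor gene Sp7 had -0.42 (SE 0.23) and -0.37 (SE 0.25) at signals of at most 20.4. Of 6 HES and HEY genes, which encode the nearest helix-loop-helix relatives of Bhlhe40, 5 were higher and 1 lower, with a median of 0.33 (0.13 with a common median, 0.15 with a pseudocount of 64 and 0.17 without Dap12-deficient array 3) and 0 at an unadjusted p under 0.05. Heyl, Hes5 and Hey1, targets of Notch signalling, had 0.39 (SE 0.20), 0.41 (SE 0.24) and 0.29 (SE 0.19), all but Hey1 at signals of at most 28.2.

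Circadian clock genes, on which Bhlhe40 and Bhlhe41 act, had 11 of 16 genes higher and 5 lower, with a median of 0.19 (0.0068 with 8 of 16 higher under a common median) and 1 higher and 0 lower at an unadjusted p under 0.05. Nr1d1, a nuclear receptor that represses Arntl, gave 13.3, 55.6 and 63.7 in Dap12-deficient cultures, against 24.3, 3.09 and 14.5 in wild-type cultures (log2 difference 0.94, SE 0.38). Ciart, another clock repressor gene, gave 59.5, 191 and 354 against 88.4, 86.0 and 80.7 (0.83, SE 0.45), or 0.31 without Dap12-deficient array 3 and 1.45 without array 1. In both genes Dap12-deficient arrays 2 and 3 stood above all wild-type arrays and array 1 did not, unlike Bhlhe40, which was highest on array 1. Arntl, the partner of Clock, had 0.43 (SE 0.24), or 0.21 without Dap12-deficient array 3.

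Genes of the transforming growth factor beta pathway, which induces Klf10, had 10 of 16 higher and 6 lower, with a median of 0.08 (-0.16 with a common median) and 2 higher and 0 lower at an unadjusted p under 0.05. The corepressor genes Tgif1 and Tgif2 gave 664, 491 and 661 against 60.4, 459 and 298 (1.45, SE 0.53) and 59.3, 74.5 and 84.7 against 47.8, 50.2 and 27.4 (0.63, SE 0.23), Dap12-deficient arrays first. Neither overlapped between the groups, although wild-type array 2 came close in Tgif1, whose difference was 0.67 without the low wild-type array 1. Id1, a helix-loop-helix inhibitor gene, had 0.62 (SE 0.32), or 0.28 without Dap12-deficient array 3.

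Glucocorticoid-responsive genes, among which Klf9 is counted in other tissues, had 7 of 11 higher and 4 lower, with a median of 0.20 (-0.01 with a common median) and 1 higher and 0 lower at an unadjusted p under 0.05. Tsc22d3, the glucocorticoid-induced leucine zipper gene, gave 560.4, 369.8 and 342 in Dap12-deficient cultures, against 104, 229 and 189 in wild-type cultures, with no overlap (1.24, SE 0.29). Its 3 other tested probe sets overlapped between the groups, at 0.16 (SE 0.24), 0.14 (SE 0.20) and 0.14 (SE 0.18). Errfi1 had 0.32 (SE 0.19), or 0.08 with a common median, and the receptor cochaperone gene Fkbp5 -0.38 (SE 0.22), or -0.17 without Dap12-deficient array 3, so these 3 genes did not lie on one side. A dimmer tested probe set of Errfi1 had 0.77 (SE 0.30) with no overlap, and that of Fkbp5 -0.48 (SE 0.22) with overlapping groups.

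Of the 8 corepressor genes through which these factors act, 3 were higher and 5 lower, with a median of -0.08 (0.48 with the Y-linked covariate) and 0 higher and 1 lower at an unadjusted p under 0.05. Ehmt2, a histone methyltransferase gene, gave 53.5, 155 and 131 in Dap12-deficient cultures, against 224, 223 and 216 in wild-type cultures (-0.98, SE 0.30), or -0.58 without Dap12-deficient array 1. Ctbp2 and Ctbp1, partners of Klf3, had 0.36 (SE 0.18) and -0.50 (SE 0.26), or 0.11 with a common median and -0.20 without Dap12-deficient array 1. Macrophage regulators tied to Bhlhe40 and Bhlhe41 had 5 of 10 higher and 5 lower, with a median of 0.01 (-0.23 with a common median) and 1 higher and 1 lower at an unadjusted p under 0.05. The inflammatory factor gene Cebpb gave 901, 792 and 985 in Dap12-deficient cultures, against 358, 642 and 620.4 in wild-type cultures (0.75, SE 0.24), while the nuclear receptor genes Rxra and Pparg had -0.61 (SE 0.26) and -0.25 (SE 0.20).

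Genes known as targets of Klf2 and Klf4 had 3 of 5 higher and 2 lower, with a median of 0.14. At an unadjusted p under 0.05, 0 were higher and 1 lower. The median was -0.0036 without Dap12-deficient array 1, and -0.68 with 1 of 5 higher under the Y-linked covariate. The cell cycle inhibitor gene Cdkn1c was dim, at mean signals of 8.04 against 19.1 (-0.54, SE 0.20). The anticoagulant receptor gene Thbd had 0.49 (SE 0.23) and the sphingosine phosphate receptor gene S1pr1 0.57 (SE 0.31). Early-response genes, whose class includes Klf4, Klf6, Klf10 and Bhlhe40, had 14 of 21 higher and 7 lower, with a median of 0.27. At an unadjusted p under 0.05, 5 of them were higher and 0 lower. Their median was 0.02 with a common median, where the median of all genes was -0.23. It lay between 0.14, without wild-type array 2, and 0.36 with any 1 array left out. Nr4a2, an orphan nuclear receptor gene, gave 531, 370.5 and 1308 in Dap12-deficient cultures, against 146, 176 and 288 in wild-type cultures (1.63, SE 0.41). Its difference was 1.12 without Dap12-deficient array 3. The AP-1 genes Jund and Fosl2 had 0.71 (SE 0.21) and 0.71 (SE 0.28), whereas Fos had 0.04 and Egr1 -0.15. Fosl2 overlapped between the groups and was at 0.43 without Dap12-deficient array 3.

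**Figure D5:**
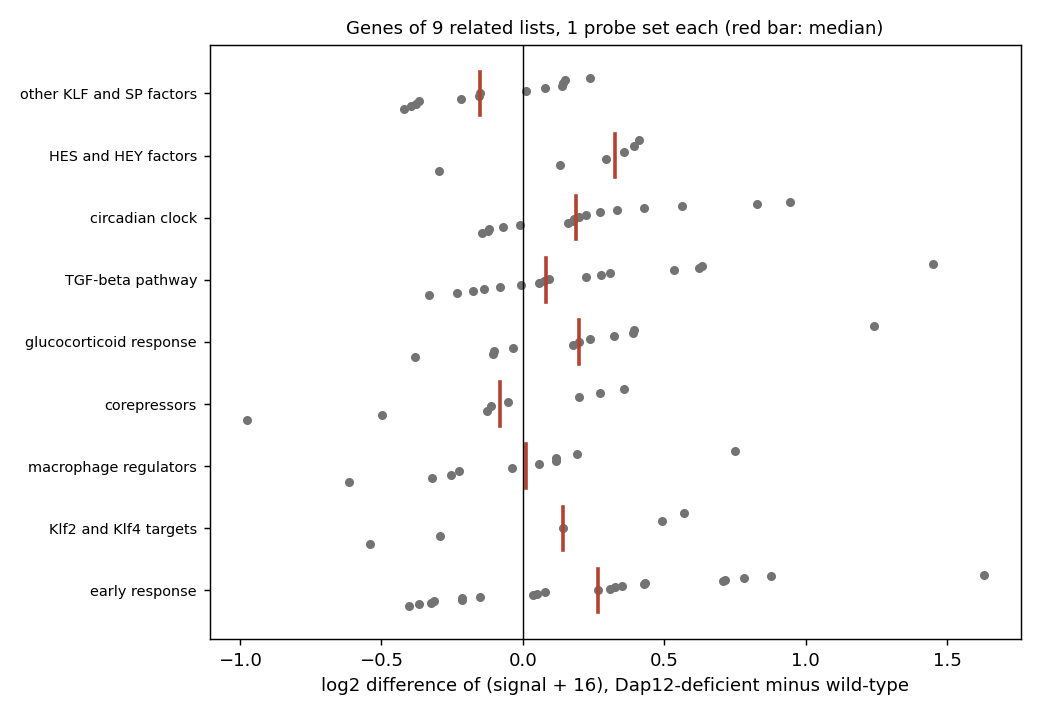
Log2 difference (Dap12-deficient minus wild-type) of each tested gene in 9 lists, 1 probe set per gene, with the median of each list as a red bar. The medians lie between -0.15 and 0.33, with Nr4a2 farthest to the right. Tgif1 (0.67 without wild-type array 1) and the brightest set of Tsc22d3, whose other sets lie at 0.14 to 0.16, follow it.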

How the data were processed

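RNA extraction used Trizol and RNeasy, and labelling a kit with repeated amplification cycles, per the labels' protocols. The authors deposited a linear intensity for each probe set, made with GCOS per the submitters' processing notes. The GCOS version and its summary algorithm are not stated there. Each array's mean after trimming 2% at each end was 100.001, so the authors had scaled the arrays to 1 target.

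Here log2 was taken of signal + 16. Of 45101 probe sets 64 controls were left out, and 34945 had 1 symbol, 932 several and 9160 none. The 27022 whose mean over the arrays reached the 40th percentile, 8.51, were fitted with limma 3.58.1 in R 4.3.3 (lmFit, eBayes with trend, two-sided, Benjamini-Hochberg adjusted p under 0.05), Dap12-deficient (3) against wild-type (3), with no covariate. No value was shared between 2 arrays. The fit was also run on simulated data with independent normal errors. Those data held no shift shared by a whole array, so nothing about the fit of these arrays is drawn from that run. Alternatives were other pseudocounts, scalings, filters, priors, array weights, covariates, fewer probe set kinds and leaving out each array.

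The members, lists, tests and alternatives were chosen with earlier results of these data known. Named genes are all members, the 3 most like Bhlhe40 and Klf10, the 3 of each list with the smallest unadjusted p, the markers and Tyrobp. Fos, Egr1 and Rorb were named after their values were seen. Promoters come from RefSeq (GRCm38.p6). Plots used matplotlib 3.10.9 in Python 3.11.15.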

Additional observations from a re-analysis of the deposited data

How the results depend on the processing

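Of 27022 probe sets, 2 were called, and the count was 5 with a common median, 4 with array weights, 1 without probe sets whose names end in _x_at, _s_at or _a_at, 11 with the sex term and 5 with the myelin term. Leaving out 1 array gave 2 to 172, the highest without Dap12-deficient array 2 and 15 without Dap12-deficient array 1, and the cause was not tested. The count of member probe sets called was 0 under the other 19 of 20 alternatives and 0 to 1 with 1 array left out, Klf10 being the one called. The count of probe sets of the 9 lists called was likewise 0 to 1, with a second probe set of the nuclear receptor gene Rorb called without Dap12-deficient array 2 (log2 difference 1.44, SE 0.21, limma adjusted p = 0.0238). Of the 26 tested member probe sets, 8 kept the sign of their difference under every alternative run, among them those of Bhlhe40, Klf10, Klf2 and set 1 of Klf4, and 18 changed sign under at least 1. No paired analysis was possible because the groups share no replicate numbers in the labels. The values are limited by 3 arrays per group and, for dim probe sets such as those of Bhlhe41, by signals near the pseudocount of 16.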
